A study of Homo sapiens with 12 samples.

Results

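The genes described here are 10 members of the ATF4 and serine synthesis programme: the transcription factor ATF4, its stress-responsive targets TRIB3, CHAC1, DDIT3 and ASNS, the serine synthesis enzymes PHGDH, PSAT1 and PSPH, and the mitochondrial folate enzymes SHMT2 and MTHFD2. They are a fixed list of gene symbols that was drawn up with earlier results of these data known, and all 10 were found among the 46639 symbols of the deposited table. RNA had been sequenced from 12 libraries of MOLM-13, an established human acute myeloid leukemia (AML) cell line. The 4 groups of 3 libraries were untreated cells, cells given daily pulses of DAC (decitabine, 100 nM), which inhibits DNA methyltransferases, cells given 1 µM all-trans retinoic acid (ATRA, the ligand of retinoic acid receptors), and cells given both drugs (DAC+ATRA). The study asked which transcripts the drugs change alone and together.

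All 4 groups came from the same cell line, grown per the labels with fetal calf serum and GM-CSF, a myeloid growth factor, while the study's general culture methods name serum but no GM-CSF. Untreated libraries are labelled 96 h and every treated library 72 h, while the design text gives a single harvest at 72 h. The study's methods place ATRA on the third day, a shorter exposure than the label time. The control libraries are labelled untreated and no library is labelled as vehicle-treated. The design text calls the 3 libraries of a group technical triplicates, so every p-value below measures only the spread within 1 experiment on 1 cell line. Drug, label time and depth cannot be told apart where they coincide: the libraries held 8.95 to 11.9 M reads in untreated cells (M stands for mega), 4.67 to 6.95 M with DAC, 8.36 to 10.7 M with ATRA and 5.61 to 7.16 M with DAC+ATRA. Of 9 myeloid or leukemia markers (CD33, SPI1, FLT3, HOXA9, MEIS1, CSF1R, LYZ, MPO and CEBPA) all 9 were present in every library, with 27659 to 204368 reads in sum, against 30 to 123 reads in sum for 7 markers of other cell types, of which MS4A1 was at 0 throughout. DAC replicate 3 stood apart from the other DAC libraries on the third principal component.

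ATF4 is a bZIP transcription factor of the integrated stress response. Kinases that sense amino acid shortage, unfolded protein, heme deficiency or double-stranded RNA phosphorylate the translation factor eIF2, which lowers protein synthesis in general but raises translation of the ATF4 messenger, so that ATF4 protein can change without a change of its RNA. ATF4 in turn activates genes for amino acid uptake and synthesis, among them the enzymes that make serine from a glycolytic intermediate and the mitochondrial enzymes that pass a carbon of serine on to folate for nucleotide synthesis. Leukemia cells are known to draw on these pathways for growth.

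Values are normalised counts, which are reads divided by 1 scaling factor per library. Changes are differences of log2(normalised count + 1) from limma with a standard error (SE), fitted over 10642 protein-coding genes, and a gene is called when the Benjamini-Hochberg adjusted p over all of these is under 0.01. Because reads had been counted for each transcript separately, reads that fit several transcripts of a gene appear to be missing, and levels are compared between libraries and never between genes.

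Against untreated cells, most of the programme was lower with ATRA while ATF4 RNA itself was not called. With ATRA, 8 of the 10 genes were called and all 8 were lower: TRIB3, CHAC1, PSAT1, PHGDH, SHMT2, PSPH, ASNS and MTHFD2. Over all genes tested, 26.0% were called in this comparison, 14.0% lower and 12.1% higher. The median log2 change of the 10 genes was -1.44, beside -0.038 over all genes tested. PHGDH passed the filter on low values only through libraries without ATRA, where it was higher, so a call could hardly have gone the other way. Without it 7 of 9 were called lower with ATRA, with a median of -1.32. CHAC1 is still among these 9, and it too reached 10 normalised counts in no ATRA library, so a similar limit holds for it. With DAC+ATRA, 5 of 10 were called, all lower (TRIB3, CHAC1, PSAT1, SHMT2 and MTHFD2), where 28.9% of all genes tested were called, 14.4% lower and 14.5% higher; the median of the 10 was -0.85 beside -0.00389. With DAC, only TRIB3 was called, lower, where 7.97% of all genes were called, 3.67% lower and 4.29% higher; the median of the 10 was -0.36 beside -0.00406. These 3 comparisons share the same untreated libraries. In RNA from bulk culture, fewer cells of a type and less RNA per cell cannot be told apart.

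**Figure D1:**
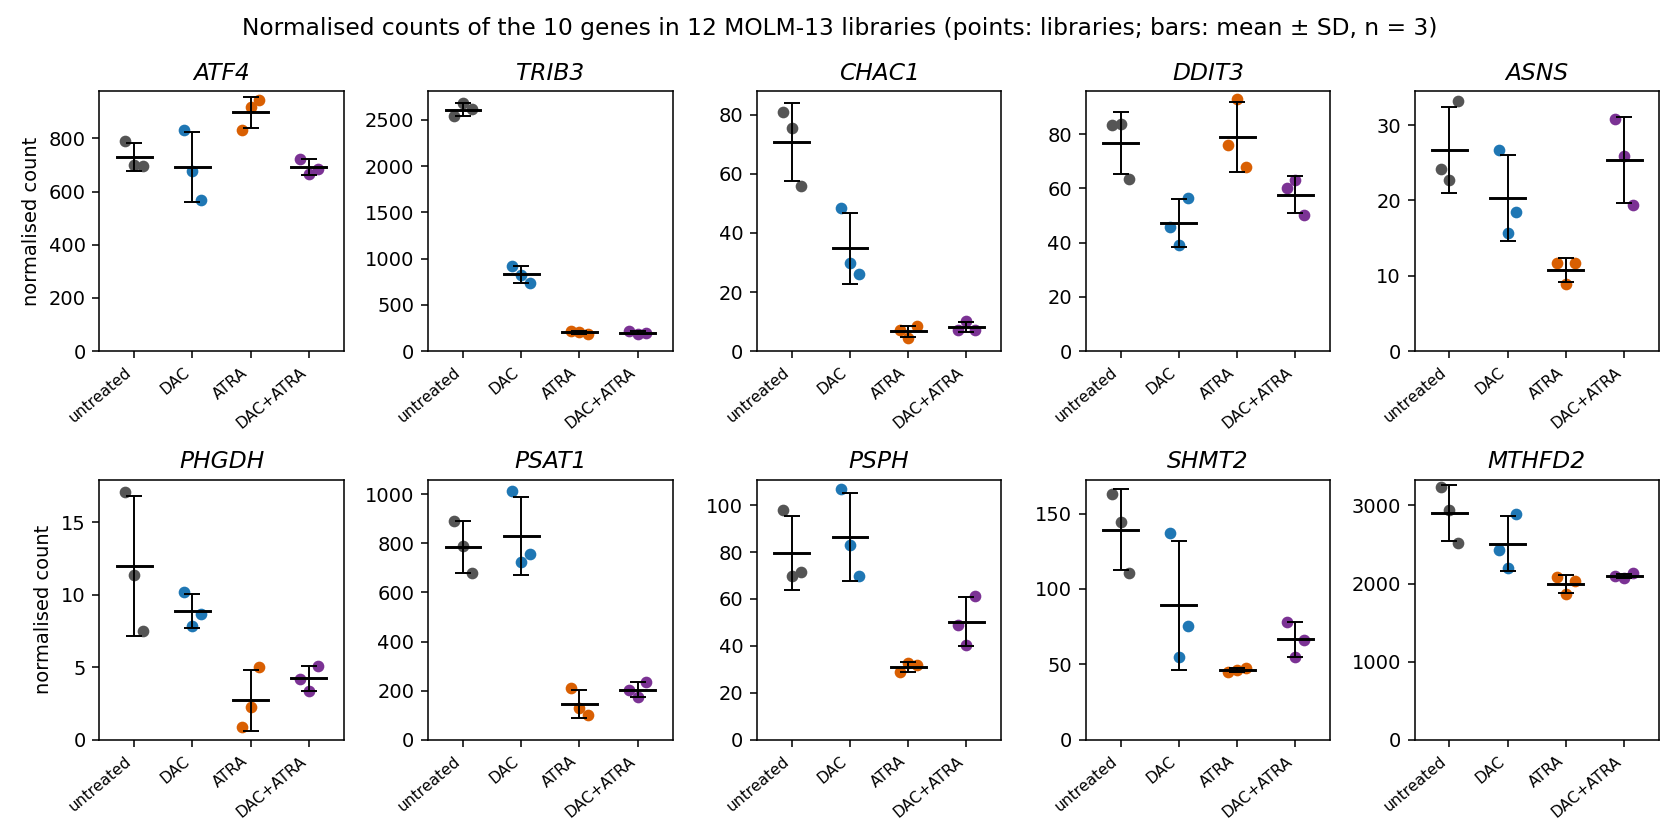
Normalised counts (y axis, from 0, a separate scale for each gene) in the 3 libraries of each group (x axis). Points are libraries, wide bars the mean and whiskers the SD (n = 3). TRIB3 falls from 2612 in untreated cells to 830 with DAC and about 200 with ATRA, whereas ATF4 stays between 568 and 943 in every library.

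ATF4 RNA moved little in any group. It measured 791, 701 and 695 normalised counts in untreated replicates 1 to 3, and 829, 677 and 568 with DAC. With ATRA the libraries measured 832, 919 and 943, and with DAC+ATRA 724, 666 and 685. The ATRA libraries lay above every other library, DAC replicate 1 coming within a few counts of them, while the other 3 groups overlapped one another. Means were 729 ± 53.6 (SD, n = 3) untreated, 692 ± 131 with DAC, 898 ± 58.2 with ATRA and 692 ± 29.2 with DAC+ATRA. The log2 change was 0.30 ± 0.13 (SE) with ATRA (limma, adjusted p = 0.0701), -0.09 with DAC (95% interval -0.35 to 0.17, adjusted p = 0.695) and -0.07 with DAC+ATRA (-0.34 to 0.19, adjusted p = 0.676). None of the 3 was called, and the interval for ATRA, 0.04 to 0.57, lay on the higher side.

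TRIB3, a pseudokinase that ATF4 induces and that feeds back on it, had the largest change of the 10 with each treatment. Untreated libraries measured 2538, 2680 and 2616 normalised counts. DAC libraries measured 924, 828 and 739, ATRA libraries 213, 212 and 184, and DAC+ATRA libraries 214, 183 and 201. Every DAC library lay below every untreated one, every library with ATRA lay below every DAC one, and ATRA and DAC+ATRA overlapped. Against untreated, TRIB3 fell 3.15-fold with DAC (log2 change -1.66 ± 0.12 SE, adjusted p = 1.49e-08), 12.8-fold with ATRA (-3.68, adjusted p = 1.02e-14) and 13.0-fold with DAC+ATRA (-3.71, adjusted p = 1.24e-14). These calls held under every alternative setting tried.

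CHAC1, which degrades glutathione and is a target of ATF4 and CHOP, was likewise lower with DAC than untreated in every library and lowest in the groups with ATRA. Untreated libraries measured 80.9, 75.5 and 55.8 normalised counts and DAC libraries 48.3, 29.8 and 26.1. ATRA libraries measured 7.17, 4.46 and 8.36 and DAC+ATRA libraries 6.999, 10.1 and 7.15, each on 5 to 10 reads. The DAC libraries lay above all libraries with ATRA, and ATRA and DAC+ATRA overlapped. CHAC1 fell 9.48-fold with ATRA (log2 change -3.24 ± 0.34 SE, adjusted p = 3.35e-07) and 7.89-fold with DAC+ATRA (-2.98, adjusted p = 1.08e-06), and its log2 change of -1.04 with DAC was not called (adjusted p = 0.0464).

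DDIT3 encodes CHOP, a stress-induced C/EBP family factor linked to apoptosis, and did not follow TRIB3 and CHAC1. Untreated libraries measured 83.2, 83.6 and 63.4 normalised counts, and ATRA libraries 76.2, 93.0 and 67.7. DAC libraries measured 45.8, 39.2 and 56.6, and DAC+ATRA libraries 60.2, 63.0 and 50.03. ATRA overlapped untreated, and the DAC and DAC+ATRA libraries lay below all untreated ones. The log2 change was 0.04 with ATRA (95% interval -0.42 to 0.50, adjusted p = 0.908), -0.40 with DAC+ATRA (adjusted p = 0.156) and -0.69 ± 0.22 SE with DAC (adjusted p = 0.0362), none of them called. The DDIT3 gene overlaps MARS1 and MBD6 on the other strand and an unnamed gene and MIR616 on its own strand, and reads shared with these could not be told apart, since the strand setting of the counting is not given.

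ASNS makes asparagine and is a classical target of amino acid deprivation. Untreated libraries measured 24.1, 22.7 and 33.2 normalised counts and DAC libraries 26.7, 15.7 and 18.5. ATRA libraries measured 11.6, 8.93 and 11.7, on 12 to 14 reads each, and DAC+ATRA libraries 30.8, 25.9 and 19.4. ATRA was thus below all other groups, which overlapped one another. The fall with ATRA was 2.34-fold (log2 change -1.23 ± 0.32 SE, adjusted p = 0.00561). With DAC+ATRA the log2 change was -0.08 (95% interval -0.75 to 0.60, adjusted p = 0.876) and with DAC -0.39 (adjusted p = 0.466). The ATRA call was lost without any 1 of the 3 untreated or 3 ATRA libraries (adjusted p between 0.0106 without ATRA replicate 1 and 0.0365 without untreated replicate 3), with no filter on low values (0.0146) and on the main transcript row alone (0.0187).

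Of the 3 serine synthesis enzymes, PSAT1, the transaminase of the second step, had the largest falls with ATRA and with DAC+ATRA. Untreated libraries measured 891, 788 and 679 normalised counts and DAC libraries 1013, 725 and 757. ATRA libraries measured 211, 130 and 100 and DAC+ATRA libraries 202, 173 and 235. The libraries with and without ATRA did not overlap, and DAC overlapped untreated. PSAT1 fell 5.54-fold with ATRA (log2 change -2.47 ± 0.21 SE, adjusted p = 1.51e-08) and 3.86-fold with DAC+ATRA (-1.95, adjusted p = 4.4e-07), and its log2 change with DAC was 0.07 (95% interval -0.36 to 0.51, adjusted p = 0.864).

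PSPH, the phosphatase that releases serine in the last step, fell with ATRA to a smaller extent. It measured 98.0, 69.8 and 71.5 normalised counts untreated and 107, 83.1 and 69.7 with DAC. ATRA libraries measured 28.7, 32.7 and 31.8, and DAC+ATRA libraries 49.0, 40.5 and 61.3. DAC+ATRA lay between ATRA and the 2 groups without ATRA, with no overlap on either side. The fall with ATRA was 2.49-fold (log2 change -1.32 ± 0.23 SE, adjusted p = 1.65e-04), and the log2 change of -0.66 with DAC+ATRA was not called (adjusted p = 0.0303).

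PHGDH, the dehydrogenase of the first step, was measured on few reads. Untreated libraries measured 17.1, 11.4 and 7.53 normalised counts and DAC libraries 10.2, 7.84 and 8.71. ATRA libraries measured 0.896, 2.23 and 5.02, which are 1, 3 and 6 reads, and DAC+ATRA libraries 4.20, 3.38 and 5.11, which are 3, 3 and 5 reads. The 6 libraries with ATRA lay below the 6 without it. The log2 change was -1.90 ± 0.52 SE with ATRA (adjusted p = 0.00688), -1.26 with DAC+ATRA (adjusted p = 0.0598) and -0.33 with DAC (adjusted p = 0.731). PHGDH passed the filter of 10 normalised counts through 3 libraries only, 2 untreated and 1 DAC, and its ATRA call was lost without ATRA replicate 1 (adjusted p = 0.0365) or ATRA replicate 2 (0.0207).

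The 2 mitochondrial folate enzymes also fell with ATRA. SHMT2, which splits serine into glycine and a folate-bound carbon, measured 163, 145 and 110 normalised counts untreated, 137, 54.9 and 75.1 with DAC, 44.8, 46.1 and 47.7 with ATRA, and 78.4, 55.2 and 66.4 with DAC+ATRA. The ATRA libraries were the lowest 3 of 12, and DAC replicate 1 was well above the other DAC libraries. SHMT2 fell 2.94-fold with ATRA (log2 change -1.55 ± 0.27 SE, adjusted p = 1.18e-04) and 2.07-fold with DAC+ATRA (-1.05, adjusted p = 0.00385). With DAC its log2 change of -0.73 was not called (adjusted p = 0.0738), but without DAC replicate 1 it was -1.09 and called (0.00473). The DAC+ATRA call of SHMT2 was lost without untreated replicate 1 (0.0250), untreated replicate 2 (0.0180), DAC+ATRA replicate 2 (0.0239) or DAC+ATRA replicate 3 (0.0135), and on its main transcript row alone (0.0503).

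MTHFD2, which oxidises the folate-bound carbon onward, had the smallest called changes. It measured 3236, 2938 and 2525 normalised counts untreated and 2435, 2202 and 2891 with DAC. ATRA libraries measured 2081, 1860 and 2037, and DAC+ATRA libraries 2096, 2073 and 2130. All 6 libraries with ATRA lay below all 6 without it. MTHFD2 fell 1.45-fold with ATRA (log2 change -0.54 ± 0.11 SE, adjusted p = 9.4e-04) and 1.37-fold with DAC+ATRA (-0.46, adjusted p = 0.00323), and by 0.21 on the log2 scale with DAC, which was not called (adjusted p = 0.237). The DAC+ATRA call was lost without untreated replicate 1 (0.0272), untreated replicate 2 (0.0166) or any 1 DAC+ATRA library (0.0117 to 0.0154).

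**Figure D2:**
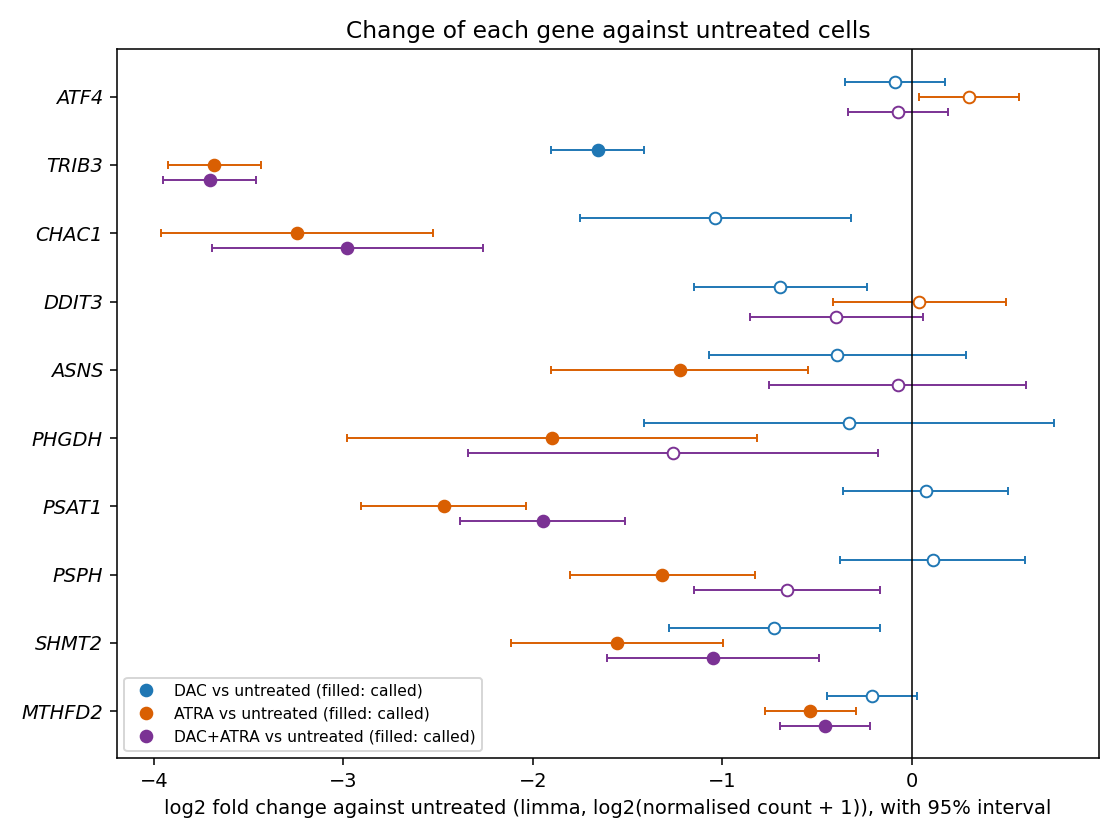
Log2 fold change against untreated cells (x axis, limma on log2(normalised count + 1)) of each gene (y axis) with DAC, ATRA and DAC+ATRA. Whiskers are 95% intervals and filled points are called at an adjusted p under 0.01. Filled ATRA points appear for 8 genes, all left of 0, and TRIB3 alone has a filled DAC point.

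ATRA was also tested on top of DAC. In DAC+ATRA against DAC alone, 3 of 10 genes were called, all lower, where 18.8% of all genes tested were called, 9.74% lower and 9.04% higher. TRIB3 fell 4.13-fold (log2 change -2.05 ± 0.12 SE, adjusted p = 6.85e-11), PSAT1 4.06-fold (-2.02, adjusted p = 3.73e-07) and CHAC1 3.84-fold (-1.94, adjusted p = 2.28e-04). PSPH had a log2 change of -0.77 that was not called (adjusted p = 0.0177), but it was called without DAC replicate 3 (-0.91, adjusted p = 0.00828). The other 6 had log2 changes between -0.93 for PHGDH and 0.32 for ASNS, none called.

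DAC+ATRA was also compared with ATRA alone, although the study's methods start DAC before ATRA. In DAC+ATRA against ATRA alone none of the 10 genes was called by limma, DESeq2 or edgeR, where limma called 11.9% of all genes tested (6.47% higher and 5.46% lower), and 4 genes had an unadjusted p under 0.05 in limma. ASNS had the largest log2 change, 1.15 (95% interval 0.47 to 1.83, adjusted p = 0.0157), and its ATRA and DAC+ATRA libraries did not overlap. PSPH was 0.66 higher on the log2 scale (adjusted p = 0.0510) and PSAT1 0.52 higher (adjusted p = 0.0844). ATF4 was 0.37 lower on the log2 scale (95% interval -0.64 to -0.11, adjusted p = 0.0411). TRIB3 differed by -0.02 (95% interval -0.27 to 0.22). A call appeared for PSAT1 without ATRA replicate 1 (log2 change 0.81, adjusted p = 0.00332) and for ATF4 without DAC replicate 3 (adjusted p = 0.00891).

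The interaction asks whether the change with DAC differed between cells with and without ATRA. It is positive where DAC changed a gene upward more, or downward less, with ATRA than without. Among the 10 it was called for TRIB3 alone, where 1.60% of all genes tested were called (0.724% higher and 0.874% lower). For TRIB3, DAC changed the log2 value by -1.66 without ATRA and by -0.02 with it, an interaction of 1.63 ± 0.17 SE (95% interval 1.29 to 1.98, adjusted p = 8.61e-06). It was positive and not called for ASNS (1.54, adjusted p = 0.0745), CHAC1 (1.30, adjusted p = 0.179) and SHMT2 (1.23, adjusted p = 0.0850). SHMT2 was called without DAC replicate 1 (1.59, adjusted p = 0.00653). ATF4 was the only 1 of the 10 with a negative value, -0.28 (95% interval -0.66 to 0.09).

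**Figure D3:**
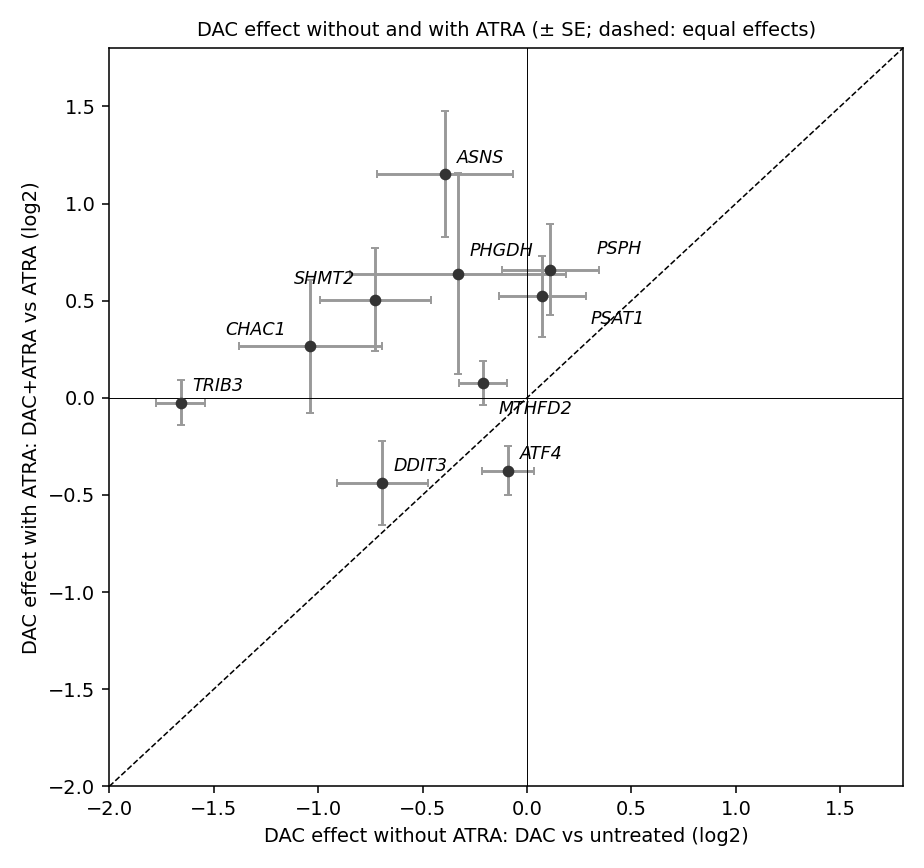
Log2 effect of DAC without ATRA (x axis, DAC against untreated) and with ATRA (y axis, DAC+ATRA against ATRA) for the 10 genes, with SE bars. The dashed line marks equal effects. TRIB3 lies farthest from the line toward the left, at -1.66 and -0.02, and ATF4 is the only gene below the line.

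Promoters of the 10 genes were searched for known binding letters of this family, because 8 of the 10 fell together with ATRA. RefSeq on GRCh38.p14 gave a start for 8 genes (not PSPH and SHMT2), and the 250 bases before the start were read on both strands. The core of the C/EBP-ATF response element, TGATGNAA (TTNCATCA on the other strand), was present in ASNS and CHAC1, and in 3.89% of all 27305 genes of the table. The narrower TGATGCAA, which the core includes, was present in CHAC1 and in 0.967% of genes. The cAMP response element TGACGTCA was present in none of the 8 and in 2.03% of genes. CCAAT, bound by NF-Y, was present in PHGDH, PSAT1, MTHFD2, CHAC1 and DDIT3, and in 37.0% of genes. Shown here are ASNS and CHAC1 for the core, and PSAT1 and DDIT3 for repeated CCAAT, of which PSAT1 fell with ATRA and DDIT3 was not called. TRIB3, the gene that changed most, is shown too, and none of these letters was present in the bases searched for it. The stretches of CHAC1, ASNS, DDIT3 and TRIB3 lie inside these genes as GENCODE release 44 bounds them. Matches before other starts of these genes may thus be missed. Each is written 5′ to 3′ on the strand of the gene, with the matches in capitals. CHAC1 is chr15:40953242-40953415 (plus strand), with the core match starting 209 bases before the start. ASNS is chr7:97872449-97872496 (minus strand), with its match 68 bases before the start. PSAT1 is chr9:78296992-78297097 (plus), DDIT3 is chr12:57520566-57520634 (minus) and TRIB3 is chr20:381195-381294 (plus, the last 100 bases before the start).
CHAC1: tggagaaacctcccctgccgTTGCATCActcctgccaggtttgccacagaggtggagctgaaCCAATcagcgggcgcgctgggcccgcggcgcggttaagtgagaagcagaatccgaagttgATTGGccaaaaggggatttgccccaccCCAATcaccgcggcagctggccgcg
ASNS: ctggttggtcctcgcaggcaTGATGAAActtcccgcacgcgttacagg
PSAT1: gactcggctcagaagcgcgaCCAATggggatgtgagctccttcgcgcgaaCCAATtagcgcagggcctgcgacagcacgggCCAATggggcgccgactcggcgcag
DDIT3: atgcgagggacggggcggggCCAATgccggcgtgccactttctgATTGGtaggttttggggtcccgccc
TRIB3: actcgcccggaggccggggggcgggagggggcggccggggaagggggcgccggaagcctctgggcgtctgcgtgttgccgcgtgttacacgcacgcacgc
A match describes letters only. Within the 250 bases searched, the core was present in ASNS and CHAC1 but not in PSAT1, TRIB3, PHGDH or MTHFD2, which also fell with ATRA. DDIT3 and ATF4 had none there either. Bases farther out were not searched, so whether the core divides the genes that fell from DDIT3 and ATF4 cannot be told.

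The transcript rows behind each gene are described on a release that may differ from the unstated one used for counting. For ATF4 the row ENST00000396680, with 0 exonic bases of its own, still held a mean of 21.6 normalised counts untreated. The bases given here are thus only an approximation of what the counting could see. On GENCODE release 44 the main row of TRIB3 (chromosome 20, 362835 to 397559) had 1221 of 2356 exonic bases that no other listed transcript of the same gene covers, that of MTHFD2 (chromosome 2) 2390 of 4403, that of PSAT1 (chromosome 9) 795 of 2206, that of ATF4 (chromosome 22, 39519695 to 39522683) 506 of 2019, and that of CHAC1 (chromosome 15) 345 of 1520. Those of SHMT2 and DDIT3 (both chromosome 12) had 209 of 2157 and 110 of 951, that of PSPH (chromosome 7) 208 of 2178, that of ASNS (chromosome 7) 75 of 2356 and that of PHGDH (chromosome 1) 19 of 1882. The main row held 98.2% of the normalised counts of TRIB3, 94.1% of ATF4 and 100% of PSAT1, but 66.9% of ASNS, 69.6% of PSPH and 71.5% of SHMT2. For SHMT2 the second row, ENST00000414700, held 22.5% of the gene in untreated cells, 18.5% with DAC, 4.62% with ATRA and 10.2% with DAC+ATRA. For PSPH the second row, ENST00000275605, held 35.1% untreated, 32.1% with DAC, 35.5% with ATRA and 17.0% with DAC+ATRA, so that on the main row alone PSPH was called higher in DAC+ATRA than in ATRA (log2 difference 1.01, adjusted p = 0.00788). PSPH has pseudogene copies, and SHMT2 and MTHFD2 overlap NDUFA4L2 and SLC4A5 on the other strand; reads shared with these could not be told apart.

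Other genes that ATF4 is known to induce were taken from a list of 32, of which 27 were tested. With ATRA 17 were called lower and 3 higher, with DAC+ATRA 18 lower and 2 higher, and with DAC 5 lower and 0 higher, and their median log2 changes were -0.86, -0.78 and -0.44. Over all genes tested, 14.0% were called lower and 12.1% higher with ATRA, and 14.4% lower and 14.5% higher with DAC+ATRA. With DAC these shares were 3.67% and 4.29%. The medians over all genes tested were -0.038, -0.00389 and -0.00406. The largest falls with ATRA were in INHBE, an activin subunit (81.3 ± 13.7 to 3.73 ± 3.41 normalised counts, log2 change -4.55), STC2, a secreted stress glycoprotein (119 ± 11.2 to 11.5 ± 3.05, -3.28), and GPT2, a mitochondrial alanine transaminase (43.7 ± 4.83 to 5.08 ± 2.56, -2.98), with limma adjusted p of 9.36e-06, 2.81e-05 and 1.93e-05. The 3 that rose with ATRA were CEBPB, a myeloid C/EBP factor (458 ± 26.9 to 1872 ± 333, log2 change 2.01, adjusted p = 1.38e-09), GDF15, a stress cytokine (35.7 ± 8.70 to 126 ± 2.99, 1.81, adjusted p = 5.18e-07), and PPP1R15A (2272 ± 203 to 3868 ± 494, 0.76, adjusted p = 3.61e-05). PPP1R15A, which directs the phosphatase that reverses eIF2 phosphorylation, was called lower with DAC (log2 change -0.95) and with DAC+ATRA (-0.73). With DAC the largest fall was in DDIT4, an inhibitor of mTORC1 (1923 ± 155 to 447 ± 40.3, -2.10, adjusted p = 1.57e-10), and SESN2, an amino acid sensor, fell by 0.69 on the log2 scale (adjusted p = 0.00969); with ATRA SESN2 fell by 0.75. With DAC+ATRA, GDF15 reached 278 ± 4.13 (2.96), CEBPB 968 ± 16.0 (1.08), INHBE 3.89 ± 3.95 (-4.37) and STC2 9.46 ± 7.34 (-3.92). INHBE had at most 6 reads in a DAC+ATRA library, so the limit of the filter holds for it there too. CTH, which makes cysteine, fell from 24.5 ± 13.1 to 3 reads or fewer in every DAC+ATRA library, at least 6.91-fold lower against a floor of 3 reads per library. In the ATRA libraries CTH had at most 8 reads, also under 10 normalised counts. It too passed the filter only through groups where it was higher.

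Upstream of ATF4, all 20 listed genes of eIF2 and its kinases were tested. Of these 3 were called lower and 3 higher with ATRA, 4 lower and 2 higher with DAC+ATRA, and 2 lower and 1 higher with DAC. With ATRA and DAC+ATRA these shares are near those over all genes tested (14.0% lower and 12.1% higher, and 14.4% lower and 14.5% higher), and nothing is read from them about the list. With DAC 3.67% of all genes tested were called lower and 4.29% higher, and on so few calls in the list nothing is read from them either. The median log2 changes were -0.00126 with ATRA, -0.0944 with DAC+ATRA and -0.0265 with DAC. The medians over all genes tested were -0.038, -0.00389 and -0.00406. OMA1, the mitochondrial protease that relays mitochondrial stress, was called higher with each treatment (287 ± 32.9 untreated, 514 ± 154 with DAC, 515 ± 42.2 with ATRA and 550 ± 47.5 with DAC+ATRA). EIF2AK4, which encodes the amino acid sensor GCN2, rose with ATRA by 0.39 on the log2 scale (adjusted p = 0.00744), and its activator GCN1 rose with DAC+ATRA by 0.65 (adjusted p = 6.93e-04). EIF2AK2, the kinase activated by double-stranded RNA, fell with DAC by 0.59 on the log2 scale (adjusted p = 0.00923). The eIF2 subunits EIF2S2 and EIF2S3 fell with ATRA by 0.60 and 0.49, and EIF2A by 0.46; with DAC+ATRA EIF2A, EIF2S3 and EIF2S2 fell by 0.66, 0.60 and 0.51.

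Genes of endoplasmic reticulum stress outside the ATF4 arm, 21 of 23 tested, were mostly higher where called with DAC and mostly lower where called with ATRA. With DAC 7 were called higher and 0 lower, with ATRA 1 higher and 7 lower, and with DAC+ATRA 8 higher and 4 lower, with median log2 changes of 0.31, -0.0317 and 0.11. Over all genes tested, 4.29% were called higher and 3.67% lower with DAC, and 12.1% higher and 14.0% lower with ATRA. With DAC+ATRA these shares were 14.5% and 14.4%. The medians over all genes tested were -0.00406, -0.038 and -0.00389, so the ATRA median of this list was near that of all genes. The chaperones PDIA4 (46.4 ± 11.5 to 128 ± 51.0 normalised counts, log2 change 1.39, adjusted p = 0.00595), SDF2L1 (276 ± 19.9 to 669 ± 157, 1.25, adjusted p = 1.79e-05) and HYOU1 (34.4 ± 4.91 to 83.3 ± 18.1, 1.24, adjusted p = 6.95e-04) rose with DAC. With ATRA, HERPUD1, a part of the degradation complex of the endoplasmic reticulum, rose (170 ± 21.0 to 563 ± 103, 1.71, adjusted p = 8.94e-08), and the calcium-binding chaperone CALR fell by 1.09 on the log2 scale, MBTPS2 by 0.76 and MANF by 0.62. With DAC+ATRA, HERPUD1 (1.41), PDIA4 (1.37) and HYOU1 (1.32) were higher, and DNAJB9 (-0.81), XBP1 (-0.81) and EDEM1 (-0.69) lower. CALR and MANF, lower with ATRA, were higher with DAC (0.95 and 0.66). TRIB3 fell with DAC while these chaperones rose, and with ATRA it fell as did 7 of the 8 called genes of this list, HERPUD1 being the exception. With DAC+ATRA TRIB3 fell as well (log2 change -3.71), while 8 genes of this list were called higher and 4 lower.

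Around the serine enzymes, 20 of 24 other folate and glycine genes were tested. With DAC none was called, with ATRA 7 were lower and 1 higher, and with DAC+ATRA 5 were lower and 1 higher, with median log2 changes of 0.0396, -0.41 and -0.084. Over all genes tested, 14.0% were called lower and 12.1% higher with ATRA, and 14.4% lower and 14.5% higher with DAC+ATRA. With DAC these shares were 3.67% and 4.29%. The medians over all genes tested were -0.00406 with DAC, -0.038 with ATRA and -0.00389 with DAC+ATRA. ALDH1L2, which oxidises mitochondrial formyl-folate (27.3 ± 6.75 to 6.45 ± 3.64 normalised counts, -2.05, adjusted p = 0.00120), GCSH of the glycine cleavage system (27.9 ± 12.9 to 6.46 ± 2.38, -1.92, adjusted p = 8.07e-04) and the purine synthesis enzyme PAICS (77.7 ± 11.1 to 31.9 ± 6.87, -1.27, adjusted p = 3.61e-04) fell with ATRA. In the ATRA libraries ALDH1L2 had at most 13 reads and GCSH at most 12. Each had at most 8 reads in a DAC+ATRA library. The mean of each was under 10 normalised counts with ATRA and with DAC+ATRA. Both genes thus passed the filter mainly through groups where they were higher, and a limit like that of PHGDH holds for them. SLC25A32, which carries folate into mitochondria, rose with ATRA (477 ± 21.4 to 705 ± 23.0, 0.56, adjusted p = 4.06e-04) and with DAC+ATRA (0.65). SFXN1, which carries serine into mitochondria, fell with ATRA (-0.71, adjusted p = 4.17e-05) and with DAC+ATRA (1576 ± 80.4 to 866 ± 34.5, -0.86, adjusted p = 4.03e-06). GCSH (-1.65), ALDH1L2 (-1.60) and PAICS (-0.85) also fell with DAC+ATRA.

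Of 17 genes of serine uptake and use, 15 were tested. With ATRA 5 were lower and 1 higher, with DAC+ATRA 6 lower and 1 higher, and with DAC 1 lower and 2 higher, with median log2 changes of -0.13, -0.21 and -0.12. Over all genes tested, 14.0% were called lower and 12.1% higher with ATRA, and 14.4% lower and 14.5% higher with DAC+ATRA. With DAC these shares were 3.67% and 4.29%. The medians over all genes tested were -0.038 with ATRA, -0.00389 with DAC+ATRA and -0.00406 with DAC. The neutral amino acid carriers SLC1A4 (1652 ± 84.0 to 725 ± 17.5 normalised counts, -1.19, adjusted p = 8.26e-08) and SLC1A5 (1211 ± 133 to 575 ± 45.4, -1.07, adjusted p = 1.12e-04) fell with ATRA, and by 0.43 and 0.72 on the log2 scale with DAC+ATRA. SLC38A2, a carrier that amino acid shortage induces, fell with DAC by 0.49, with ATRA by 0.65 and with DAC+ATRA by 1.16 on the log2 scale. SERINC5, a membrane protein of the serine incorporator family, fell with ATRA by 1.65 and with DAC+ATRA by 1.20 but rose with DAC by 0.60 on the log2 scale (adjusted p = 0.00431), and PTDSS1, which makes phosphatidylserine, rose with DAC by 0.40. SPTLC2, which joins serine to a fatty acid in sphingolipid synthesis, rose with ATRA by 0.84 and with DAC+ATRA by 0.70 on the log2 scale. Several genes stand in more than 1 list, among them PPP1R15A, ALDH1L2, SFXN1, SLC1A4, SLC1A5 and SLC38A2, so that the counts of the lists are not separate.

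**Figure D4:**
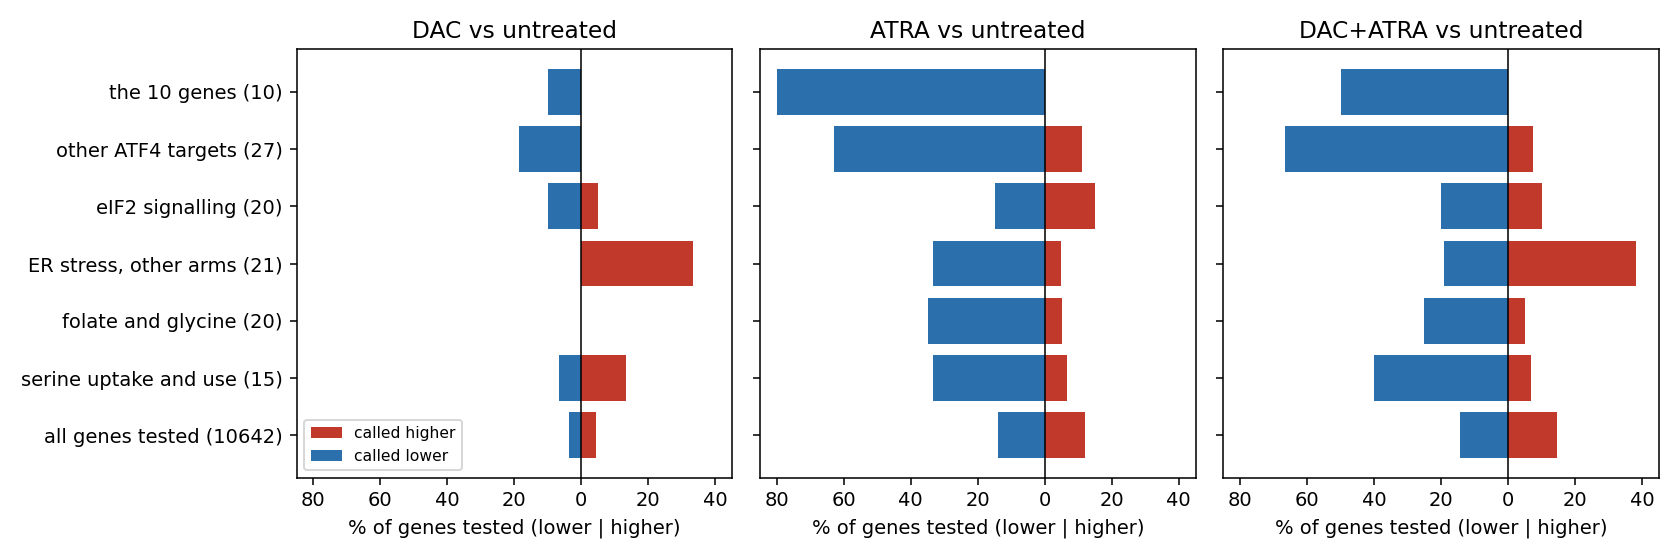
Share of the genes tested in each list (y axis, number tested in brackets) that were called lower (blue, to the left) or higher (red, to the right) against untreated cells, in percent, with all genes tested in the bottom row. With ATRA 8 of the 10 genes and 17 of 27 other ATF4 targets were lower, and with DAC 7 of 21 endoplasmic reticulum stress genes were higher.

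The genes most like ATF4, ASNS and PHGDH in pattern were found by the root mean square difference of log2 values centred on the untreated mean, over the 12 libraries. For ATF4 these were KLHL36 (0.107), GOLGA1 (0.108) and SRF (0.113), for ASNS they were SLC43A3 (0.211), FAM174B (0.281) and KSR1 (0.286), and for PHGDH they were FAHD2B (0.337), MYC (0.393) and TFAP2E (0.409). Among the other 9 genes, the nearest to ATF4 was DDIT3 (0.439), which ranked only 3892 by nearness to ATF4. The nearest to ASNS was MTHFD2 (0.495, rank 374) and the nearest to PHGDH was SHMT2 (0.496, rank 18). For ATF4 and ASNS, many genes outside the programme thus lay closer than any other gene of it. These differences and ranks are descriptions over libraries that share 1 cell line.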

How the data were processed

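RNA of 12 MOLM-13 libraries was analysed. After depletion of ribosomal RNA and strand-specific library preparation, the authors used STAR for alignment (hg38), htseq-count for read counting and DESeq2 for testing of protein-coding transcripts. The annotation release and versions are not given in the sources used here. The deposited signal is normalised counts, read counts that the authors divided by 1 size factor per library, for 100502 rows, each a transcript with a gene symbol. In every library 100% of values were whole reads within 0.01 after division, so reads were recovered. CTRL columns were read as untreated.

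Rows were summed per symbol. Symbols were matched to GENCODE release 44 on GRCh38, which lists 88.9% of the rows. The test covered 10642 protein-coding genes that reached 10 normalised counts in 3 or more libraries. It was run with limma 3.58.1 (lmFit, eBayes with trend) in R 4.3.3 on log2(normalised count + 1), which understates changes of low genes. All 12 libraries entered 1 fit of 4 groups, without covariates. Benjamini-Hochberg adjustment was done within each of 6 comparisons. Fold changes are on the log2(normalised count + 1) scale. Intervals are 95% intervals of the moderated fit. The scripts were tested on simulated data.

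Replicates were compared by chi-square; no pair agreed within sampling noise (chi-square per degree of freedom 2.26 to 33.8). The 10 genes and the lists, written from general knowledge, were chosen with earlier results of these data known. Named genes were the 10, the 3 called list genes of largest change in each direction against untreated with a mean of at least 10 normalised counts, and the 3 genes nearest in pattern to ATF4, ASNS and PHGDH. Alternatives were edgeR 4.0.16 (TMM or DESeq2 factors) and DESeq2 1.42.0 on recovered reads, limma with TMM or total-count scaling, pseudocounts of 0.1 and 5, no filter or a filter of 50, all symbols, only the main transcript row, only the groups compared, a threshold of 0.05, a replicate block, and leaving out each library in turn.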

Additional observations from a re-analysis of the deposited data

Results flagged for a closer look

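The change of TRIB3 with DAC differed between cells with and without ATRA by a test of the difference itself. The interaction was 1.63 on the log2 scale (limma, adjusted p = 8.61e-06), and its adjusted p lay between 1.54e-16 and 1.17e-04 over the alternatives. Untreated libraries measured 2538 to 2680 normalised counts and DAC libraries 739 to 924, while ATRA libraries measured 184 to 213 and DAC+ATRA libraries 183 to 214.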

How the results depend on the processing

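The counts of genes called among the 10 stayed within 1.5 times the main count under every scaling, count model, pseudocount and filter tried. At an adjusted p under 0.05, DAC against untreated had 3 calls (CHAC1 and DDIT3 added) and DAC+ATRA against ATRA 2 (ATF4 and ASNS). DAC+ATRA against ATRA had 1 call on the main transcript row alone (PSPH) and 1 in a fit of only the groups compared (ATF4). Leaving out 1 library gave 1 to 2 calls for DAC (2 without DAC replicate 1), 6 to 8 for ATRA, 3 to 5 for DAC+ATRA (3 without untreated replicate 1 or 2 or DAC+ATRA replicate 2 or 3), 3 to 4 for DAC+ATRA against DAC, 0 to 1 for DAC+ATRA against ATRA (1 without DAC replicate 3 or ATRA replicate 1) and 1 to 2 for the interaction (2 without DAC replicate 1). The causes were not tested.

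Signs turned only for values that were not called, and the ranges here are those of leaving out 1 library. ATF4 ranged from -0.23 to 0.042 with DAC and from -0.12 to 0.16 in DAC+ATRA against DAC, where edgeR with TMM factors gave -0.0016. ASNS with DAC+ATRA ranged from -0.22 to 0.098, with 0.026 on the main row alone. With DAC, PSAT1 ranged from -0.078 to 0.17 and PSPH from -0.050 to 0.27. SHMT2 in DAC+ATRA against DAC ranged from -0.62 to 0.038. DDIT3 with ATRA ranged from -0.090 to 0.14, with -0.012 under total-count scaling. TRIB3 in DAC+ATRA against ATRA ranged from -0.094 to 0.035, with 0.0024 under total-count scaling and 0.0025 on the main row alone.

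Libraries with the same replicate number did not deviate together (correlations of deviations from -0.26 to 0.11), so the numbers do not pair the libraries. A fit with the replicate number as a block called 7 genes with ATRA (PHGDH lost, adjusted p = 0.0119), 1 with DAC, 5 with DAC+ATRA, 3 against DAC, 0 against ATRA and 1 in the interaction. PHGDH missed the filter and has no value on the main row alone, without untreated replicate 1 or 2 or DAC replicate 1, and in fits of only the groups compared other than DAC against untreated. PHGDH and ASNS have none under the filter of 50, CHAC1 has none in DAC+ATRA against ATRA when only these groups were fitted, and the interaction needs all 4 groups. At 1 to 10 reads per library, PHGDH and CHAC1 with ATRA are limited by counting error.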
